A study of Mus musculus with 5 samples.

Results

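Nrxn2 (neurexin-2), Nlgn3 (neuroligin-3), Odz3 (teneurin-3, now Tenm3), Agrn (agrin) and Cask encode proteins that organize contacts across the synapse, and all 5 had exons whose splicing shifted when Pqbp1 was knocked down. They were chosen by name from the authors' deposited table of alternative splicing events, which lists 457 genes. The 5 genes account for 13 of 585 events and 28 of 1402 splice junctions. Nrxn2 has 5 of these events, Agrn and Cask have 3 each, and Nlgn3 and Odz3 have 1 each. Every event in the table has a junction with the authors' p under 0.05, so a p under 0.05 is what placed the members in the list and is given below as a description. No event beyond that threshold is listed.

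RNA came from cortical neurons of E16.5 embryos of C57BL/6 mice, collected on day 5 in vitro. All 5 samples received lentivirus: 3 carried a non-targeting hairpin (mock knockdown) and 2 a hairpin against PQBP1 (PQBP1 knockdown), a nuclear protein that binds splicing factors. The labels do not say if replicates were separate cultures, how many embryos were pooled or how many hairpin sequences were used, so the p-values may reflect the spread of technical repeats only. The table compares the groups and gives neither counts nor values for a single sample, so the depth is unknown and no SD accompanies the values.

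Neurexins sit on the presynaptic side and bind neuroligins and other partners across the cleft. Teneurins are large transmembrane proteins that bind each other and latrophilins across the contact. Agrin is a secreted proteoglycan that nerve endings release, best known for clustering acetylcholine receptors at the neuromuscular junction through LRP4 and MuSK. CASK is an intracellular scaffold whose PDZ domain holds the tails of neurexins. Short optional exons in these genes insert or remove a few residues, and several are known to change which partner is bound.

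Optional exons on which the results turn are printed here to show which segment of each messenger RNA was gained or lost. Sequences are transcript sequences of GENCODE M21, 5′ to 3′, on the mouse assembly mm10. Capitals mark the optional segment, and the 12 lower-case bases on each side belong to the neighbouring exons of the same transcript. In the Cask acceptor the capitals mark the 15 bases that the farther acceptor removes from an exon of 81 nt, so the bases after them belong to the same exon.
Nrxn2 24 nt exon (chr19:6463824-6463847, plus strand): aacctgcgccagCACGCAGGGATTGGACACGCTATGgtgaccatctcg
Nrxn2 27 nt exon (chr19:6488784-6488810, plus strand): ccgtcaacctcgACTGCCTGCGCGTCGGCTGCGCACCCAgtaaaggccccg
Nlgn3 60 nt exon (chrX:101307075-101307134, plus strand): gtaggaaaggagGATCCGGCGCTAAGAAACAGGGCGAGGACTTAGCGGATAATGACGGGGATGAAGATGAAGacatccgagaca
Odz3 21 nt exon (chr8:48287133-48287153, minus strand): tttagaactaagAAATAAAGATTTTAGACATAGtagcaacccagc
Agrn 24 nt exon (chr4:156168546-156168569, minus strand): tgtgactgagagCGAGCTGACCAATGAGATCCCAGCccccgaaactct
Agrn 33 nt exon (chr4:156167777-156167809, minus strand): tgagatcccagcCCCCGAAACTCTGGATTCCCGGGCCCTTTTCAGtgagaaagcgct
Cask 36 nt exon (chrX:13550947-13550982, minus strand): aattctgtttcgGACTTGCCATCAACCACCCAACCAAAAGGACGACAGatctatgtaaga
Cask 15 nt acceptor segment (chrX:13537827-13537841, minus strand): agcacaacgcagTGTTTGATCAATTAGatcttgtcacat

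The junctions of an event have one splice site in common and differ in the other. An event of 2 junctions offers inclusion (the nearer junction) against skipping (the farther one). Its inclusion ratio below is the ratio of these junctions in the knockdown divided by the same ratio in mock cells. The 2 folds also imply a level: if both uses add up to the whole in each group, only one pair of shares fits the folds, and these shares are called implied use. They are inferred, not measured. Of the 28 member junctions, 26 had a p under 0.05 in the authors' deposited table, 13 higher and 13 lower in the knockdown. Over all junctions with a p it was 76.2%. The rule rests on the same p, so nothing is read from that share.

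**Figure D1:**
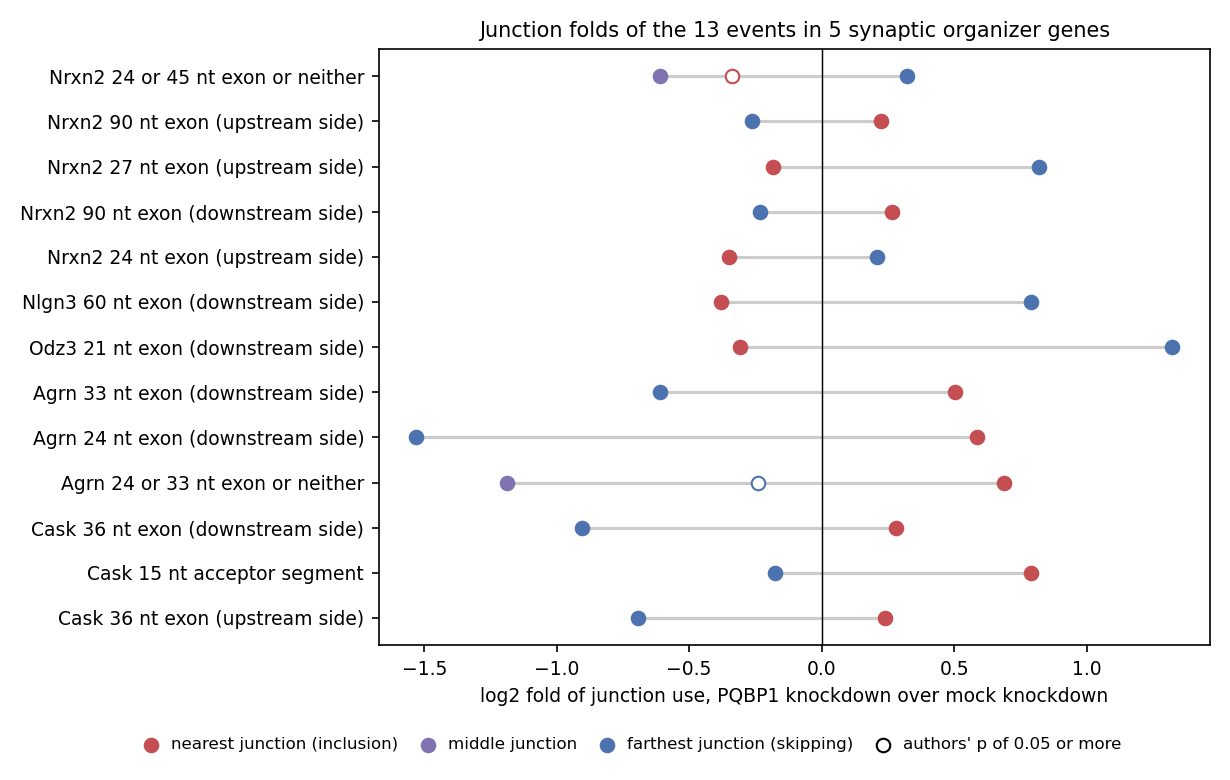
Log2 fold of relative use (x axis, PQBP1 knockdown over mock knockdown, the authors' values) for all 28 junctions of the 13 events (y axis), coloured by distance from the shared splice site. Open points mark the 2 junctions with a p of 0.05 or more. Inclusion junctions lie right of zero in the 2-junction events of Agrn, Cask and the Nrxn2 90 nt exon and left of zero in Nlgn3, Odz3 and the other Nrxn2 exons, and in the upper 3-junction event the nearest and the middle junction both include an Nrxn2 exon.

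Nrxn2 shifted at 3 places in its extracellular part, and the places did not move the same way. The exons of 24 and 27 nt were used less in the knockdown and the exon of 90 nt was used more. In the annotated transcript with the most exons these are exons 7, 12 and 20 of 23, and they correspond to the canonical neurexin splice sites 2, 3 and 4. Sites 2 and 3 lie in the part found only in the long alpha-neurexins, whereas site 4 is shared by alpha- and beta-neurexins, so its junctions do not separate these forms.

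The exon of 24 nt at splice site 2 lies in the second LNS domain, which binds neurexophilins and dystroglycan. Read from its upstream side, the authors' deposited table gives log2 folds of -0.35 (inclusion) and 0.21 (skipping) with p = 0.0494, an inclusion ratio of 0.679 times mock. The implied use of the exon was 42.2% in mock and 33.2% in knockdown cells. This reading takes both lengths of the exon together, because they share the acceptor.

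From the downstream side the same exon appears as an event of 3 junctions, which separates the lengths. The skipping junction was higher (log2 fold 0.32, p = 0.00180) and the junction from the 24 nt form was lower (log2 fold -0.61, p = 0.00251) in the authors' deposited table. The 45 nt form, made with a donor 21 bases farther on, had a log2 fold of -0.34 (p = 0.646) in the authors' deposited table. Relative to skipping, the 24 nt form was at 0.523 times mock and the 45 nt form at 0.633 times. Both readings thus moved towards skipping, but they share the skipping junction and are not independent. With 3 junctions the folds no longer fix a level, but uses that add up to the whole bound skipping at 45.4% to 57.9% in mock and 56.7% to 72.4% in knockdown cells. The upstream reading, with the exon at 42.2% in mock cells, lies within these bounds.

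At splice site 3 the coding exon of 27 nt, in the fourth LNS domain, was listed from its upstream side alone. The authors' deposited table lists log2 folds of -0.19 (inclusion) and 0.82 (skipping) with p = 0.0453, and the inclusion ratio was 0.498 times mock. The exon was the rule rather than the exception in both groups, with an implied use of 86.4% in mock and 76.0% in knockdown cells.

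Splice site 4 is the best studied neurexin insert: neurexins without it bind LRRTMs and dystroglycan, and those with it bind cerebellins. Its exon of 90 nt was used more after knockdown from both of its sides, in readings that share the skipping junction. Upstream, the authors' deposited table gives log2 folds of 0.23 (inclusion) and -0.26 (skipping) with p = 0.0348. Downstream, the authors' deposited table has 0.27 and -0.23 for them (p = 0.0457). The inclusion ratios, 1.40 and 1.41 times mock, are the smallest shifts among the members. Implied use rose from 49.8% to 58.2% read upstream and from 42.4% to 51.0% read downstream, so the sides differ more in level (7.35 percentage points in mock cells) than in shift (0.169 points).

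**Figure D2:**
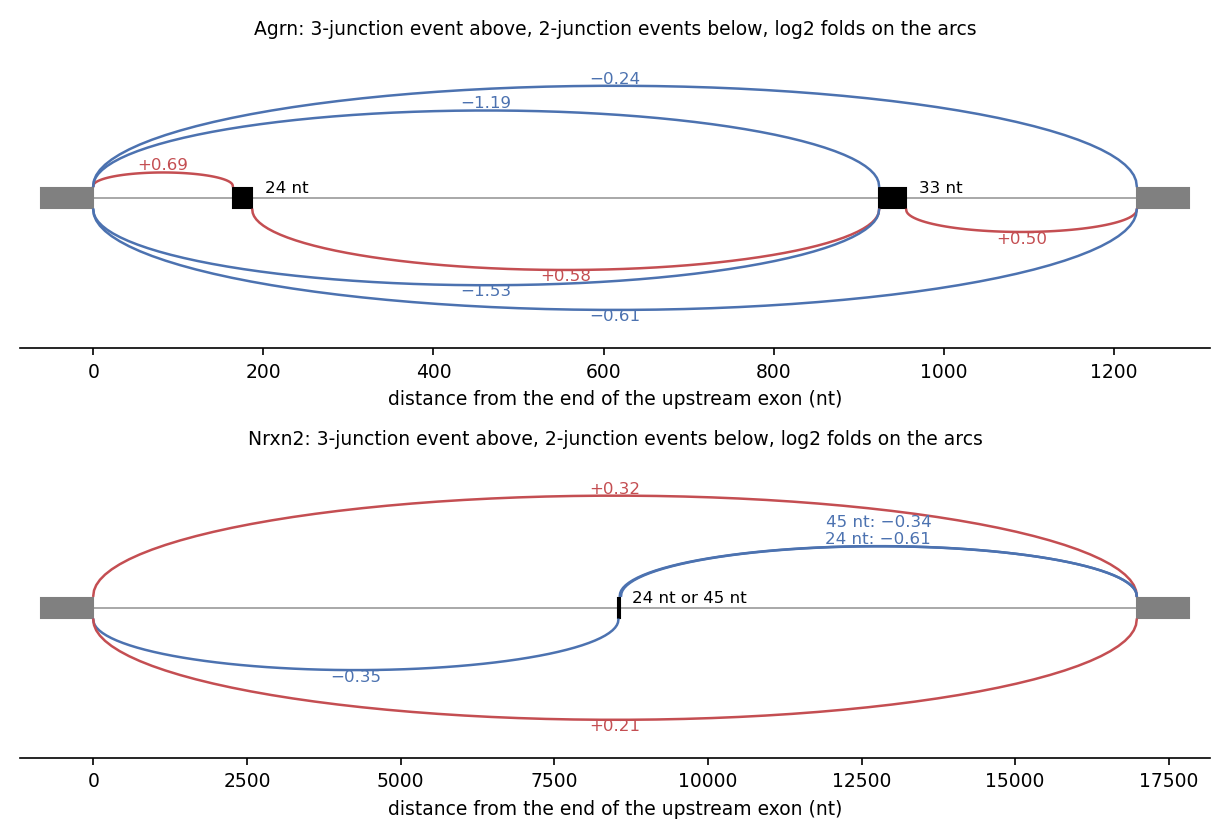
Junctions as arcs over the optional exons of Agrn (top) and of Nrxn2 at splice site 2 (bottom), drawn to scale along the distance from the end of the upstream exon (x axis, nt), with the authors' log2 folds on the arcs, red where higher and blue where lower in the knockdown; flanking exons are grey and not to scale. In Agrn every arc that joins the 24 nt exon is red, and in Nrxn2 both skipping arcs are red and all arcs that join the exon are blue.

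Nlgn3, a postsynaptic partner of neurexins, included less of an exon of 60 nt in its extracellular esterase-like domain, at the position known as splice site A. The authors' deposited table gives log2 folds of -0.38 for the junction from this exon and 0.79 for the junction that skips it (p = 0.0187). The inclusion ratio was 0.444 times mock, and the implied use went from 75.9% in mock to 58.3% in knockdown cells. Splice site A holds a second optional exon of 60 nt at chrX:101303072-101303131, inside the span of the skipping junction. None of the listed junctions touches it, so the values describe the downstream exon of the pair against skipping of both.

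Odz3 had the largest shift towards skipping among the 5 genes on the log2 ratio scale, -1.63 against -1.17 in Nlgn3. In implied use its shift was -17.1 percentage points and that of Nlgn3 -17.6. Its exon of 21 nt, exon 20 of 29, adds 7 residues after residue 1218 of the annotated protein, in the beta-propeller (NHL) region that takes part in recognition between teneurins. The authors' deposited table holds log2 folds of -0.31 (inclusion) and 1.32 (skipping) with p = 0.0473. The inclusion ratio was 0.323 times mock. Most transcripts carried the exon in both groups by implied use, 88.6% in mock and 71.6% in knockdown cells.

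Agrn had the largest shift of all members, in the choice between its z inserts. Its 2 optional exons, of 24 and 33 nt, lie next to each other at the z site, near the C-terminal end, after residues 1769 and 1777 of 1950. That shift, 2.11 on the log2 ratio scale, was towards the 24 nt exon in transcripts with the 33 nt exon. Both alternatives there hold a z insert. The shift from skipping of both exons to the 33 nt exon was 1.11, smaller in size on that scale than the -1.63 of Odz3. Agrin with z inserts is made by neurons and clusters acetylcholine receptors, whereas agrin without them is made by many cell types and does so poorly. By smallest p the 3 Agrn events ranked 8, 15 and 25 among the 585 events of the table.

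The junction from the 33 nt exon to the next constitutive exon was higher and the junction that skips both exons was lower. Their log2 folds in the authors' deposited table are 0.50 and -0.61 (p = 3.71e-05), a ratio of 2.17 times mock. Implied use of the 33 nt exon was 45.1% in mock and 64.0% in knockdown cells. Of the transcripts with the 33 nt exon, more also carried the 24 nt exon: the junction between these exons had a log2 fold of 0.58 and the one from the upstream exon straight to the 33 nt exon -1.53 (p = 0.000116) in the authors' deposited table. That ratio, 4.33 times mock, corresponds to an implied use of the 24 nt exon of 56.7% in mock and 85.0% in knockdown cells.

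The third Agrn event compares the 3 routes out of the upstream exon. It shares junctions with the other Agrn events and is not independent of them. The route to the 24 nt exon was higher (log2 fold 0.69, p = 0.000459), the route to the 33 nt exon was lower (log2 fold -1.19, p = 0.00763), and skipping of both had a log2 fold of -0.24 (p = 0.0754), all in the authors' deposited table. The route to the 24 nt exon gained 3.67 times over the route to the 33 nt exon and 1.90 times over skipping. A junction from the 24 nt exon straight to the constitutive exon is not among those listed. If the 24 nt exon is always followed by the 33 nt exon, the first 2 events imply both inserts in 25.6% of mock and 54.4% of knockdown transcripts, the 33 nt exon alone in 19.6% and 9.62%, and neither in 54.9% and 36.0%. Direct splicing from the upstream exon to the 33 nt exon is not annotated in GENCODE M21.

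Cask used both of its listed optional segments more after knockdown. Its exon of 36 nt, exon 19 of 26, codes for 12 residues between the PDZ and SH3 domains. Read from the upstream side, the authors' deposited table gives log2 folds of 0.24 (inclusion) and -0.69 (skipping) with p = 0.0377, a ratio of 1.91 times mock. From the downstream side the authors' deposited table has 0.28 and -0.91 (p = 0.00798), a ratio of 2.28 times. Implied use went from 68.1% to 80.3% in the first reading and from 68.5% to 83.2% in the second. The readings share the skipping junction. They differ by 0.426 percentage points in mock cells, by 2.92 points in knockdown cells and by 2.49 points in shift. The skipping junction and the upstream inclusion junction lead from the optional exon of 69 nt (chrX:13552373-13552441), so they describe transcripts that carry that exon. The downstream inclusion junction does not touch it and can come from transcripts with or without it.

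The remaining Cask event is a choice between acceptors 15 bases apart at the start of exon 22, between the SH3 and guanylate kinase domains. Use of the nearer, annotated acceptor was higher (log2 fold 0.79) and use of the farther one lower (log2 fold -0.18, p = 0.0332) in the authors' deposited table, and their ratio was 1.95 times mock. By implied use the annotated acceptor was the minor one, at 13.7% in mock and 23.7% in knockdown cells. GENCODE M21 lacks the farther acceptor, although the 15 bases end in AG, as an acceptor requires.

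**Figure D3:**
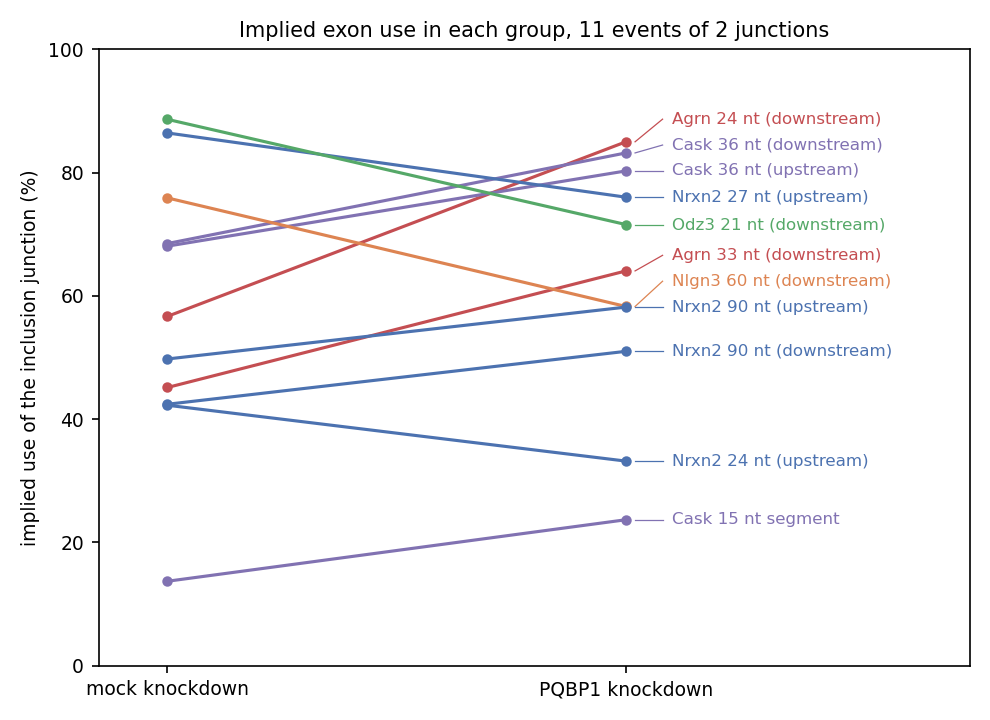
Implied use of the inclusion junction (y axis, percent) in mock and PQBP1 knockdown cells for the 11 member events of 2 junctions; each line is 1 event, coloured by gene and named by its optional segment and the side from which it was read. Lines of Agrn, Cask and the Nrxn2 90 nt exon go up and those of Nlgn3, Odz3 and the Nrxn2 24 and 27 nt exons go down, with values inferred from the authors' folds and no error available.

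The members did not all move the same way. Nlgn3 and Odz3 have 1 event each, and both readings of the Cask 36 nt exon share a junction. Agreement within a gene is therefore not read as a pattern. Among events of 2 junctions, all those of Agrn and Cask moved towards inclusion, those of Nlgn3 and Odz3 towards skipping, and those of Nrxn2 both ways. In the Agrn event of 3 junctions the route to the 24 nt exon was higher and the route to the 33 nt exon lower. Of the 11 events of 2 junctions, 7 had the nearer junction higher and 4 lower, and with each exon counted once 5 were higher and 4 lower. Over all 408 events of 2 junctions the nearer junction was higher in 42.9%. The members' shifts had a median size of 1.01 on the log2 scale (0.49 to 2.11), against 1.36 over all 408 events (0.44 to 2.83). In implied use their median shift was 12.2 percentage points (8.42 to 28.3), against 12.9 over all events. The rarer junction of the members had a median implied use of 29.2% averaged over the groups, against 22.5% over all events.

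**Figure D4:**
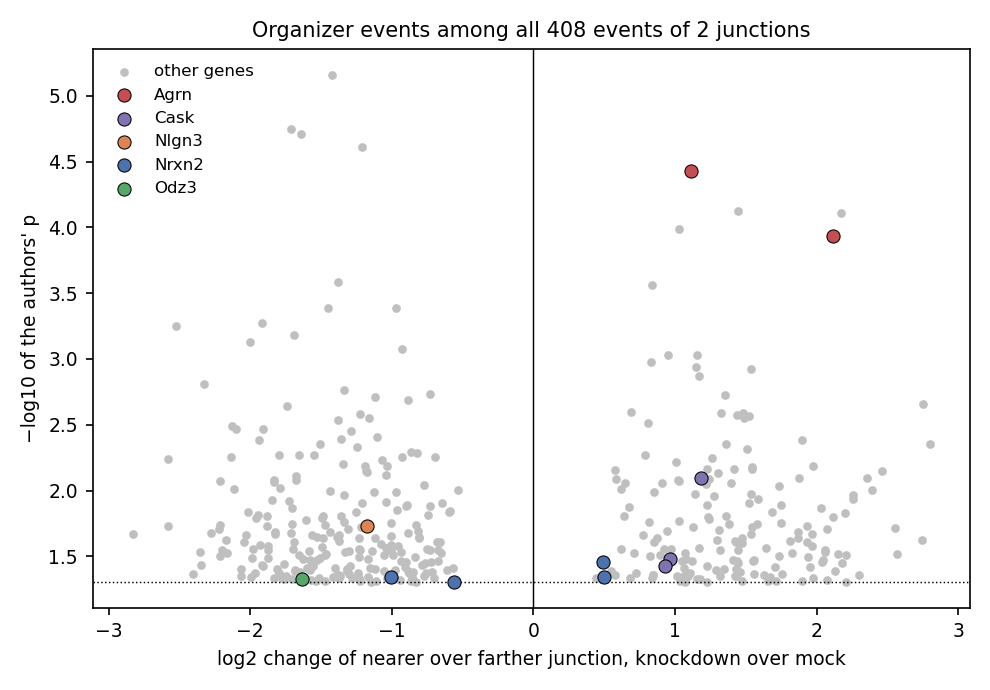
Log2 change of the nearer over the farther junction (x axis) against −log10 of the authors' p (y axis) for all 408 events of 2 junctions, with the 11 member events coloured by gene and the p of 0.05 as a dotted line. The 2 Agrn events stand near the top on the right, and most of the other member events lie close to the dotted line.

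Some features of the optional segments were not used in the choice of genes. All 8 cassette exons have a length that is a multiple of 3, so each adds 7 to 30 whole residues. They were read as coding exons of annotated transcripts. Being coding without a stop codon in the annotated frame therefore follows from the pick. The Agrn 33 nt exon was taken here as the shortest coding exon at its site. By the rule used for the whole table, the shortest annotated exon that fits both junctions, it would be a non-coding exon of 793 nt and 7 of the 8 lengths would be multiples of 3. By that rule such a length was found in 66.1% of all 224 cassette exons listed, and in 70.4% of the 199 coding ones. Exons of 27 nt or shorter, the class called microexons here, were 4 of the 8 (Odz3, Agrn 24 nt and Nrxn2 24 and 27 nt), against 10.7% of the 224. The median exon length was 30 nt in the members (31.5 nt by the rule used for the whole table) and 90 nt in the table. Of the 4 short member exons 1 was used more and 3 less, and of the 4 longer ones 3 were used more and 1 less. In the whole list 13 of the 24 short exons were used more (54.2%), against 90 of all 224 (40.2%). These are counts with no test. GC content ran from 19.0% in the Odz3 exon to 74.1% in the Nrxn2 27 nt exon, with a median of 55.8% against 51.6% in the table. The member median takes the Agrn exon at 33 nt, unlike the rule used for the whole table.

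**Figure D5:**
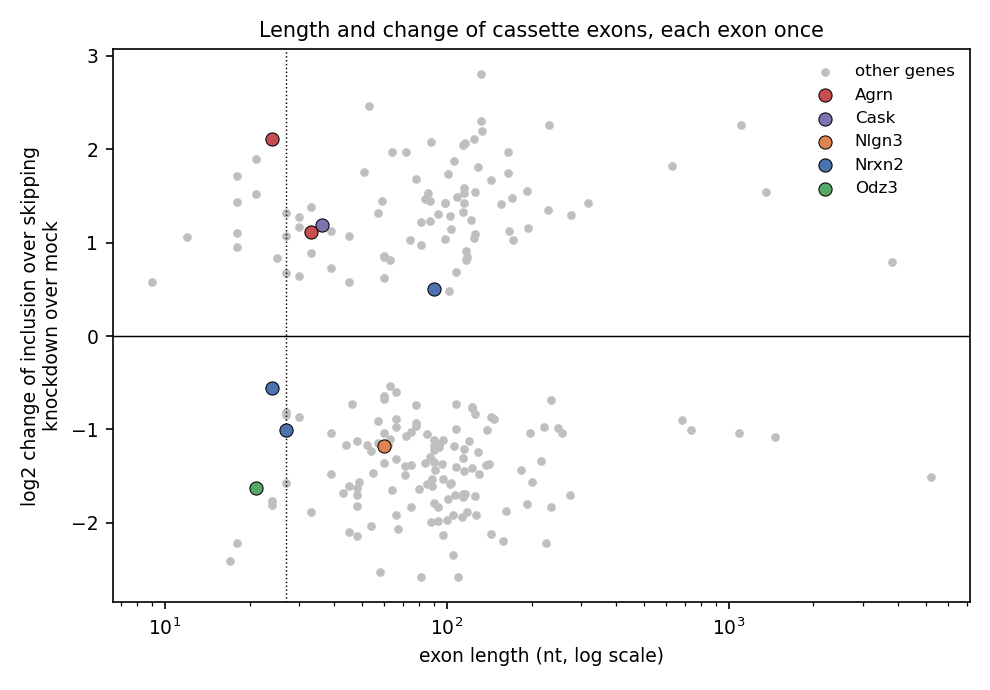
Log2 change of inclusion over skipping (y axis, knockdown over mock) against exon length (x axis, nt, log scale) for cassette exons of the table, each exon once, with the 8 member exons coloured by gene and 27 nt as a dotted line. Member exons lie at the short end, between 21 and 90 nt, on both sides of zero.

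Other genes of the same contacts were looked up from a list of 71 trans-synaptic organizers, receptors and adaptors. Besides the 5 members, 6 had an event: Lphn2, Lphn3, Clstn1, Cadm1, Cadm3 and Apba2. Of their 6 events of 2 junctions, 1 moved towards inclusion and 5 towards skipping. Over all 408 events of 2 junctions, which are not all cassette exons, the nearer junction was higher in 42.9%. Over the 224 cassette exons, each once, inclusion was higher in 40.2%. The 5 events towards skipping are fewer exons, because Apba2 and Clstn1 each have 1 exon counted from both sides with a shared skipping junction. Apba2, an adaptor that binds neurexin tails, used less of a non-coding exon of 54 nt (inclusion ratio 0.242 and 0.245 times mock from its 2 sides, p = 0.0247 and 0.0219 in the authors' deposited table). Cadm1, an adhesion molecule that also binds CASK, used less of a coding exon of 33 nt in its event of 2 junctions (0.272 times, p = 0.0185 in the authors' deposited table). It has 2 more events, of 3 and 4 junctions and with smaller p. The event of 3 junctions compares routes out of the 33 nt exon, so it does not show how often that exon was used. The event of 4 junctions sets the 33 nt exon against other routes. The junction from the 33 nt exon over the next optional exon was higher in both, with log2 folds of 0.33 (p = 0.00489) and 0.35 (p = 0.00975) in the authors' deposited table. In the event of 4 junctions the junction that skips the 33 nt exon as well had 1.95 (p = 0.00919), and the one from the next optional exon had -0.61 (p = 6.68e-05), in the authors' deposited table. Clstn1, a calsyntenin, used less of a coding exon of 57 nt (0.497 and 0.533 times, p = 0.0258 and 0.0383 in the authors' deposited table). Its skipping junction is unannotated. Implied use of the exon went from 94.6% to 89.7% read upstream and from 94.7% to 90.5% read downstream. Cadm3 went the other way, with a coding exon of 102 nt at 1.40 times mock (p = 0.0472 in the authors' deposited table).

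Latrophilins, the receptors that teneurins bind, appeared with complex events. In Lphn2 the nearest of 3 junctions had a log2 fold of 1.45 (p = 0.0190) in the authors' deposited table. In Lphn3 the authors' deposited table has 1.19 (p = 0.0477) for the nearest of 4 junctions and -0.57 (p = 0.0380) for the next. Nlgn1, Nlgn2, Nrxn3, the LRRTMs, Lrp4, Musk and Dag1 have no listed event. The table lists selected events alone, so no value can be given for these genes.

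Of 12 splicing regulators known for neurexin, agrin or microexon splicing, the 3 Rbfox genes had a listed event. Nova1, Nova2, Ptbp1, Ptbp2, Srrm3, Srrm4 and the 3 Khdrbs genes had none. Selected events alone are listed, so these genes are not shown to be unchanged. The share of listed genes among all genes tested is not known, and nothing is read from the count. Rbfox1 and Rbfox3 moved towards the nearer junction (2.47 and 2.84 times mock, p = 0.0200 and 0.00485 in the authors' deposited table). The nearer Rbfox1 junction is unannotated, with an implied use of 5.39% in mock and 12.4% in knockdown cells. In Rbfox2 the nearest of 4 junctions, which is unannotated, was higher (log2 fold 1.70, p = 0.0337 in the authors' deposited table). The other junctions of that event had a p of 0.676 to 0.900 in the authors' deposited table. Their part in the exons above was not tested. The table holds no gene levels, so neither the knockdown of Pqbp1 nor the purity of the neurons could be checked. Of 4 neuronal markers 1, Rbfox3, had an event. Of 16 markers of astrocytes, the oligodendrocyte lineage, microglia, neural progenitors and endothelium none had. An event gives no level of a marker, and how many genes were tested is not known. Nothing about purity is read from these counts.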

How the data were processed

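PolyA RNA was extracted on RNeasy columns and made into libraries with the PrepX mRNA kit, per the labels' protocols. The submitters' processing notes name TopHat2 2.0.4 and the build mm10. The authors deposited 1 table, which per the file headers gives every junction a p-value and the log2 fold of knockdown over control. How junction reads were counted, tested, filtered or adjusted was not given in the sources used here. In all 408 events of 2 junctions the junctions have opposite signs and the same p (relative tolerance 1e-06), so the log2 fold is read as a change of relative use within an event. With no values per sample, no test was run here, the depth is unknown, and the tests foreseen for counts were not used.

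Gene names were filled downwards within events. Adding 1 to start and end made 84.1% of the 1402 junctions equal to introns of GENCODE M21, which has the same build. Odz3 was matched to Tenm3 by a RefSeq synonym. A cassette exon is the shortest annotated exon that fits both junctions. For the 33 nt exon of Agrn, the shortest coding exon at that site was taken, since only a retained-intron exon of 793 nt fits both. The script for implied use was tested on simulated shares without noise, which checks the algebra and not whether the inference holds for these data. All events of the 5 genes, and every gene of the 2 pathway lists with an event, are named. One gene of these lists is not reported here. Members and lists were chosen with earlier results of these data known. Python 3.11.15 with pandas 2.3.3 and matplotlib 3.10.9 was used.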

Additional observations from a re-analysis of the deposited data

How the results depend on the processing

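Direction held for each of the 11 member events of 2 junctions when either junction was used alone, which follows from their opposite signs. The median size of change was 0.31 on the log2 scale from the nearer junction alone and 0.69 from the farther one, against 1.01 from both. Counts of direction (7 higher, 4 lower) became 3 higher and 0 lower with a p under 0.01, and 3 higher and 3 lower with changes of at least 1 (log2). Without Nrxn2 there were 2 lower, and without Cask 4 higher. With annotated junctions alone, with each exon once, and without Nlgn3, Agrn or Odz3, both counts stayed within 1.5 times the main ones. Read from the downstream side, implied use of the Cask 36 nt exon was 68.5% in mock and 83.2% in knockdown cells, and that of the Nrxn2 90 nt exon 42.4% and 51.0%. Taking the longest adjoining exon, 6 of the 8 lengths were multiples of 3. No paired analysis was possible because the table holds no values per sample, and for the same reason no replicate could be left out. Fold sizes describe events selected by p and have no error here.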

Other observations

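The 3 Agrn events overlap, which allows their folds to be set side by side. The shares implied by the 2 events of 2 junctions again assume that the 24 nt exon is always followed by the 33 nt exon. They correspond to log2 changes of 1.09 for both inserts, -1.02 for the 33 nt exon alone and -0.61 for neither. The 3-junction event of the authors' deposited table gives 0.69, -1.19 and -0.24 (p = 0.0754 for the last) for the same routes. The signs are the same for all 3 routes, and the sizes differ by up to 0.40 on the log2 scale. The events share the junction that skips both exons and the direct junction to the 33 nt exon, so they are not independent. The ratio of the route through the 24 nt exon to the direct route to the 33 nt exon was 4.33 times mock in one event and 3.67 times in the other. What the differences come from was not tested.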
